A study of Mus musculus with 2 samples.

Results

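The 10 genes described here are ligands of the WNT pathway (Wnt3, Wnt3a, Wnt5a and Wnt5b), a secreted protein that amplifies it (Rspo3), genes that it switches on (Sp5, Axin2 and Lef1) and secreted inhibitors (Dkk1 and Frzb). They were taken by symbol from the 33456 genes listed for 2 mouse droplet single-cell RNA libraries, in which each symbol named 1 gene, and their transcripts were counted over every barcode that passed as a cell. The embryoid body (EB) library came from C57BL/6 embryonic stem cells, taken off feeder cells and then grown in serum as floating aggregates to day 4, a culture labelled as favouring hemangiogenic mesoderm, the mesoderm of blood and vessels. The yolk sac (YS) library came from C57BL/6 yolk sacs of E9.5 and E10.5 embryos in equal numbers, mixed into 1 suspension, from which dead cells and about 70% of the Ter119+ cells (red cells) had been sorted out. Cells of both libraries were stored frozen, thawed and sorted live. Each was sequenced as 1 library, so there is no replicate error, and values are compared without tests or p-values. Culture, stage, dissociation and library all differ between EB and YS and cannot be told apart.

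WNT proteins are secreted signals that bind Frizzled receptors. In the canonical branch a WNT held by Frizzled and the co-receptors LRP5 and LRP6 halts the destruction of beta-catenin, which then enters the nucleus and switches on targets together with factors of the TCF and LEF family. In the mouse embryo this branch is needed to form the primitive streak, from which mesoderm and definitive endoderm arise, and secreted inhibitors limit it at the anterior side. Wnt5a and Wnt5b mostly act through other branches, which steer cell movement and polarity.

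A unique molecular identifier (UMI) counts 1 captured transcript, and a level is given as CPM, the gene's UMIs per 1000000 UMIs summed over the cells of a group. The 1875 EB cells held 50557130 UMIs (median 25537 per cell), and the 773 YS cells held 24074819 UMIs (median 28461). Intervals are 95% exact intervals (Poisson for levels, Clopper-Pearson for shares, conditional binomial for ratios) and cover counting error only. Each library was clustered without the 10 genes and without 80 other WNT pathway genes, and gave 12 clusters. In EB 8 clusters took the name of a marker list, and the other 4 are called by their leading genes as the Car3-led, Lgals3-led, Sfn-led and Lhx1-led clusters. In YS 10 were named, and the other 2 are the Cd34-led and Id2-led clusters. The markers of the labelled tissues were present: 10 of 12 hemangiogenic markers were enriched in an EB cluster of 101 cells, and 16 of 16 endothelial and 11 of 12 extraembryonic endoderm markers in their YS clusters. Other names rest on fewer markers: 4 of 12 for streak and nascent mesoderm, 4 of 12 for allantois and 5 of 12 for the other hemangiogenic cluster. The streak markers T and Fgf8 were enriched in the germ cell-like cluster and not in the streak-like one. In the YS mesothelial-like cluster 6 of 12 mesothelial and 10 of 12 mesenchymal markers were enriched. Cluster names rest on marker lists and may differ from those of the study. A pair of barcodes occurred in both libraries, and leaving out their cells left the 2-fold counts given next at 10 and 0. Wnt5a, Wnt5b, Axin2, Lef1 and Rspo3 overlap other annotated genes, and whether strand was used in counting is not given in the sources used here, so some of their UMIs may come from those genes.

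All 10 genes lay at least 2-fold higher in EB than in YS cells. Among all 15613 genes with at least 10 UMIs in both libraries together, 18.6% lay as far above their YS level in EB cells and 21.5% as far below it. Sp5 and Wnt3a, with 6 and 1 UMIs in YS cells, reached 10 UMIs only with those of EB cells. The count of 10 is therefore given as a description only. On the log2 scale, EB over YS, the 10 genes had a median of 5.27, beside -0.00 for all genes counted. Sp5 had the largest ratio, with 121 CPM (6119 UMIs) in EB cells and 0.249 CPM (6 UMIs) in YS cells, which is 486-fold (223 to 1324). Wnt5a had the smallest, with 26.7 CPM in EB cells and 3.90 CPM (94 UMIs) in YS cells, or 6.85-fold (5.55 to 8.53).

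The remaining 8 lay between these. Dkk1 (106-fold), Wnt3 (103-fold), Lef1 (90.1-fold) and Frzb (55.5-fold) each had 11 to 15 UMIs in all YS cells. Rspo3 was 21.3-fold higher, Axin2 16.8-fold and Wnt5b 26.2-fold. Wnt3a was scarce in both libraries, with 56 UMIs (1.11 CPM) in EB cells and 1 UMI in YS cells, so its ratio of 26.7 ran from 4.59 to 1072. At least 1 UMI of the 10 genes was read in nearly every EB cell, where 47 of 1875 cells (2.51%, 1.85 to 3.32) had none, against 599 of 773 YS cells (77.5%, 74.4 to 80.4).

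**Figure D1:**
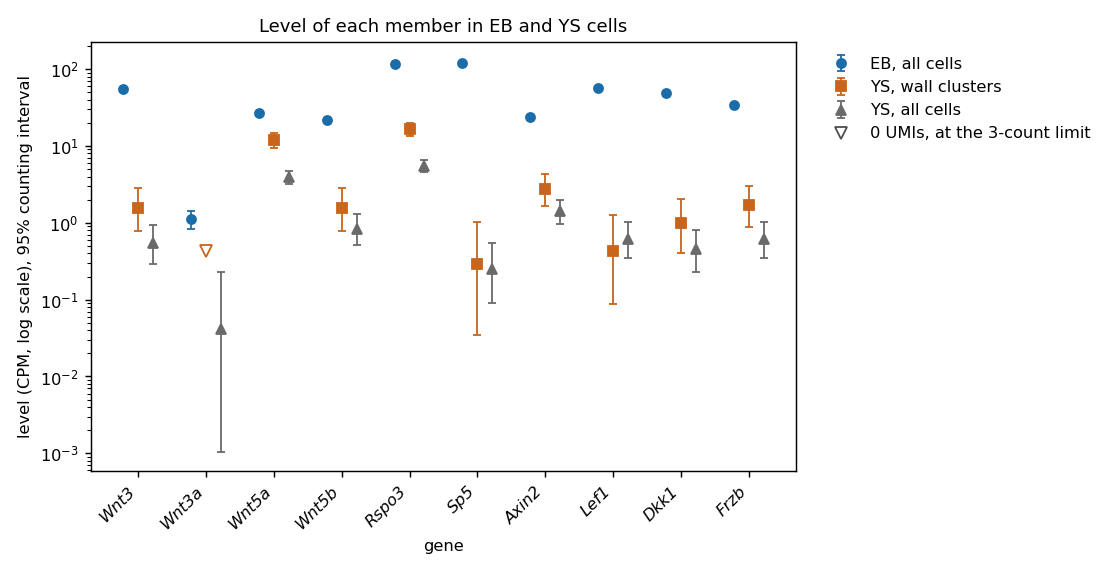
Level of each of the 10 genes in CPM on a log axis, in all EB cells (circles), in the YS wall clusters (squares) and in all YS cells (triangles), with 95% counting intervals and 1 library each; an open triangle marks 0 UMIs at the 3-count limit. Every EB value lies above both YS values, and among genes with a UMI in wall cells Wnt5a and Rspo3 come closest, at 26.7 and 116.5 CPM in EB cells against 11.9 and 16.5 CPM in YS wall cells.

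Blood cells are a large part of the yolk sac library, so EB cells were also set against the 311 cells of the 5 YS wall clusters (endothelial-like, mesenchymal and fibroblast-like, smooth muscle-like, mesothelial-like and extraembryonic endoderm-like). Again 10 of 10 genes passed 2-fold toward EB cells, beside 13.7% of 14952 genes, with a median log2 ratio over all genes of -0.18. Sp5, Lef1 and Dkk1, with 2, 3 and 7 UMIs in wall cells, and Wnt3a, with 0, reached 10 UMIs only with those of EB cells. This count too is therefore given as a description only. Wnt5a was then 2.25-fold higher (1.80 to 2.84) and Rspo3 7.07-fold higher (5.88 to 8.57). Sp5 was 422-fold higher, on 2 UMIs in the wall cells (117 to 3485). Wnt3a had no UMI in the wall cells, and the interval of its ratio began at 2.03.

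Among the ligands, Wnt3, which the mouse embryo needs to form the primitive streak, was spread over all EB states. The gene (ENSMUSG00000000125, protein-coding like all 10) lies on chromosome 11 at 103774150 to 103817957, plus strand, in the mm10 build (GRCm38) with GENCODE M21 annotation. It was read in 64.3% of EB cells (62.0 to 66.4), with up to 11 UMIs in a cell. The Lgals3-led cluster had 71.9 CPM and the streak and nascent mesoderm-like cluster 71.3 CPM, a pair whose ratio did not differ from 1 beyond counting error. Germ cell-like, Etv2-high hemangiogenic, Car3-led, Sfn-led and epiblast-like cells had 58.2 to 64.8 CPM. Levels were lower in the Lhx1-led cluster (48.2 CPM), in allantois and extraembryonic mesoderm-like cells (38.1 CPM), in definitive endoderm-like cells (26.6 CPM) and in Lmo2- and Tal1-high hemangiogenic cells (23.5 CPM). Naive pluripotent-like cells were lowest, at 12.1 CPM (7.76 to 18.0).

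Wnt3a (ENSMUSG00000009900, chromosome 11, 59248033 to 59290752, minus strand), a ligand that the mouse embryo needs for posterior mesoderm, was read in 49 EB cells (2.61%, 1.94 to 3.44). Of these, 41 also had a Wnt3 UMI. Its 56 UMIs were most concentrated in germ cell-like cells (9 UMIs, 2.35 CPM, 1.08 to 4.46) and streak-like cells (14 UMIs, 1.99 CPM, 1.09 to 3.34). No neighbours in its order of clusters differed beyond counting error. There was no UMI in definitive endoderm-like, naive pluripotent-like or Tal1-high hemangiogenic cells, which allows levels of up to 1.21, 1.51 and 1.22 CPM.

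Wnt5a (ENSMUSG00000021994, chromosome 14, 28504750 to 28527448, plus strand) separated the EB states into a high and a low set. The Car3-led cluster, whose leading genes include Hand1, Isl1 and Hoxb1, was highest at 60.0 CPM (53.5 to 67.2), above the next cluster beyond counting error. Allantois and extraembryonic mesoderm-like cells had 41.0 CPM, the Lhx1-led cluster 39.5 CPM, and germ cell-like and streak-like cells 33.2 CPM each. The Lgals3-led and Etv2-high hemangiogenic clusters closed the high set at 29.3 and 29.2 CPM. In the low set, Tal1-high hemangiogenic cells had 6.08 CPM, epiblast-like cells 5.98 CPM, definitive endoderm-like cells 5.24 CPM, the Sfn-led cluster 4.15 CPM and naive pluripotent-like cells 1.01 CPM (2 UMIs). The step between the sets was the widest gap between neighbours in this order, at 4.81-fold (2.84 to 8.76).

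Wnt5b (ENSMUSG00000030170, chromosome 6, 119432531 to 119544347, minus strand) varied less over most states. Its 9 highest clusters ran from 34.8 CPM in the Car3-led cluster to 18.6 CPM in the Lhx1-led cluster, and no neighbours among them differed beyond counting error. The other 3 were naive pluripotent-like cells (4.04 CPM), Tal1-high hemangiogenic cells (3.65 CPM) and definitive endoderm-like cells (2.82 CPM, 1.13 to 5.82). These 3 states were low in Wnt5a as well, while the Sfn-led cluster had 28.0 CPM of Wnt5b (22.8 to 34.0) and little Wnt5a.

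Rspo3 (ENSMUSG00000019880, chromosome 10, 29452416 to 29535867, minus strand) encodes an R-spondin, which keeps WNT receptors at the cell surface by removing the ligases that destroy them, and it is needed for vascular development in the mouse embryo. It was read in 69.2% of EB cells (67.0 to 71.3). The Car3-led cluster had 250.4 CPM (237 to 265), with a UMI in 92.0% of its cells. Germ cell-like cells followed with 196 CPM and Tal1-high hemangiogenic cells with 173 CPM, and each of these steps exceeded counting error. Streak-like cells had 123 CPM, Etv2-high hemangiogenic cells 104 CPM and epiblast-like cells 76.8 CPM. The lowest were definitive endoderm-like cells (35.5 CPM), the Sfn-led cluster (32.7 CPM) and naive pluripotent-like cells (6.56 CPM, 3.49 to 11.2). The Tal1-high cells, among the 3 highest of the 12 clusters for Rspo3, were among the 6 lowest for each of the other 9 genes.

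**Figure D2:**
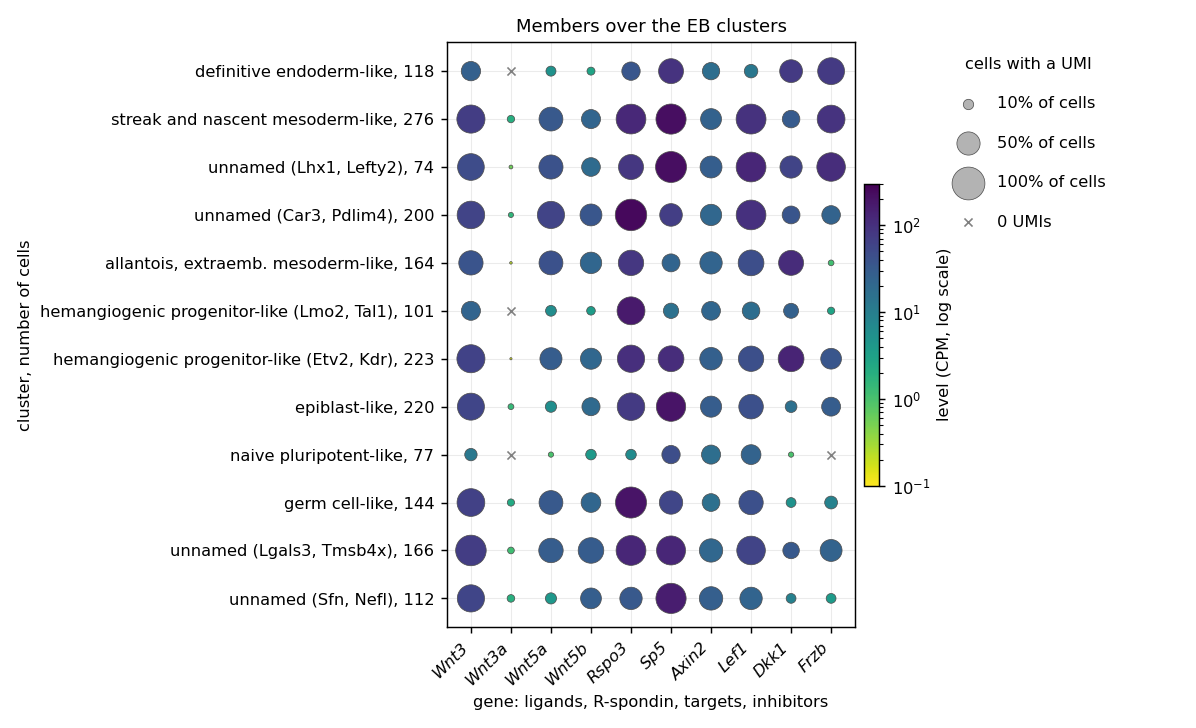
Map of the 10 genes (columns) over the 12 EB clusters (rows, with their number of cells). Colour gives the level in CPM on a log scale, circle area the share of cells with a UMI, and a cross marks 0 UMIs. Rspo3 is darkest in the Car3-led cluster (250.4 CPM), Sp5 in the Lhx1-led and streak-like clusters (225 and 222 CPM) and Dkk1 in the Etv2-high hemangiogenic cluster (134 CPM), while Axin2 keeps nearly 1 shade throughout.

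The targets are genes that beta-catenin and the TCF and LEF factors switch on in many cell types. Sp5 (ENSMUSG00000075304, chromosome 2, 70474923 to 70477729, plus strand) encodes a zinc finger factor of the Sp family, and Axin2 (ENSMUSG00000000142, chromosome 11, 108920349 to 108950783, plus strand) a scaffold of the complex that destroys beta-catenin, and so a feedback inhibitor. The 250 bases before the RefSeq start of each gene are printed as a description, chosen with their levels over the EB states known. Whether these letters relate to the levels was not tested. Sp5 covers chr2:70474673-70474922 and Axin2 chr11:108920099-108920348 (GRCm38.p6, plus strand, 5′ to 3′), and capitals mark matches on either strand to CTTTGA or CTTTGT, the core letters that TCF and LEF factors bind.
Sp5: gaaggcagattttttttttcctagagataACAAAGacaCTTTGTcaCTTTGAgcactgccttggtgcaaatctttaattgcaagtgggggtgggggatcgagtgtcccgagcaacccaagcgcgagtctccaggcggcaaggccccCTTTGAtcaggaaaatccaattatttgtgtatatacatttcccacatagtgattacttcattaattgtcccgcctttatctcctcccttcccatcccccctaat
Axin2: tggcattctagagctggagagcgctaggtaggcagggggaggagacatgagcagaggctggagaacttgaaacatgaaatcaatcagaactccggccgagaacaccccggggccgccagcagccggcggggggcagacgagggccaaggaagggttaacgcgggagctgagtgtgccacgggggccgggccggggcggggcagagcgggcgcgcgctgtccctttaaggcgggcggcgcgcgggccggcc
The Sp5 window held 4 matches, none overlapping, with their first bases at 221, 212, 204 and 104 bases before the start. The Axin2 window held 0, and bases of the gene outside this window were not searched. Of 32851 RefSeq windows of this length, 27.6% held at least 1 match and 0.0944% at least 4. Of the 8 genes of the 10 with a RefSeq entry, the windows of Wnt3, Wnt3a and Axin2 held none, and 1 or more of those of Sp5, Dkk1, Frzb, Lef1 and Wnt5b held at least 1. Counted by window, as for the share of 27.6%, 5 of their 13 windows held a match. A match describes letters only and does not show that a factor binds there.

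Sp5 was read in 62.3% of EB cells (60.1 to 64.5) and varied 14.6-fold over the clusters. The Lhx1-led cluster had 225 CPM (204 to 249) and the streak-like cluster 222 CPM (211 to 233), which could not be told apart at this depth. Epiblast-like cells had 199 CPM, the Sfn-led cluster 158 CPM, the Lgals3-led cluster 128 CPM, Etv2-high hemangiogenic cells 108 CPM and definitive endoderm-like cells 91.9 CPM, and each of these steps exceeded counting error. The Car3-led cluster had 70.3 CPM, germ cell-like cells 56.4 CPM and naive pluripotent-like cells 44.9 CPM. Sp5 was lowest in allantois and extraembryonic mesoderm-like cells (23.4 CPM, 19.1 to 28.3) and in Tal1-high hemangiogenic cells (15.4 CPM, 10.9 to 21.1).

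Axin2 had a much flatter profile. It was read in 41.4% of EB cells (39.1 to 43.7), and its highest and lowest clusters, epiblast-like cells at 29.5 CPM (25.2 to 34.4) and germ cell-like cells at 15.9 CPM (12.2 to 20.5), were 1.85-fold apart. No neighbours in its order differed beyond counting error. Tal1-high hemangiogenic cells, where Sp5 was lowest, had 21.9 CPM of Axin2 (16.4 to 28.6), against 26.7 CPM (22.8 to 31.0) in the Etv2-high cells.

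Lef1 (ENSMUSG00000027985, chromosome 3, 131110471 to 131224356, plus strand) encodes a factor that takes beta-catenin to DNA and is itself a target in many tissues. It was read in 61.1% of EB cells (58.8 to 63.3). The Lhx1-led cluster had 126 CPM (110 to 144), above the Car3-led cluster (98.1 CPM) and streak-like cells (96.9 CPM) beyond counting error. The Lgals3-led cluster had 60.1 CPM, and allantois-like, Etv2-high hemangiogenic, epiblast-like and germ cell-like cells had 42.3 to 45.2 CPM. Naive pluripotent-like cells (24.2 CPM), the Sfn-led cluster (23.8 CPM), Tal1-high hemangiogenic cells (17.4 CPM) and definitive endoderm-like cells (12.5 CPM, 8.49 to 17.7) were low. The 3 targets therefore had different orders: the Sfn-led cluster ranked 4 of 12 for Sp5 and 10 of 12 for Lef1, and definitive endoderm-like cells, lowest for Lef1, ranked 7 of 12 for Sp5.

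**Figure D3:**
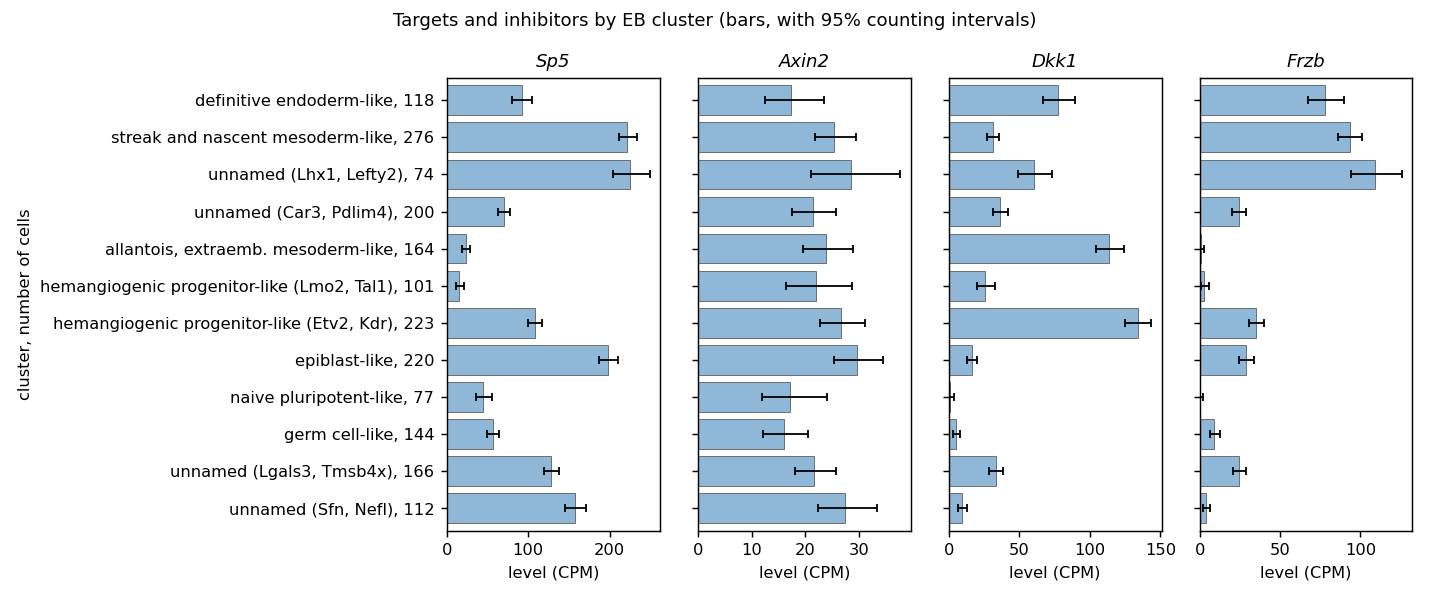
Level in CPM of Sp5, Axin2, Dkk1 and Frzb in each of the 12 EB clusters, as bars that start at 0, with 95% counting intervals and a separate scale for each gene. Axin2 spans 15.9 to 29.5 CPM, whereas Sp5 spans 15.4 to 225 CPM, and Dkk1 is high where Frzb is low in allantois and extraembryonic mesoderm-like cells (114 and 1.11 CPM).

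The inhibitors act at different steps: Dkk1 occupies LRP5 and LRP6, and Frzb, a secreted Frizzled-related protein, binds WNT ligands. Dkk1 (ENSMUSG00000024868, chromosome 19, 30545863 to 30549665, minus strand) was read in 30.8% of EB cells (28.7 to 33.0). Etv2-high hemangiogenic cells were highest with 134 CPM (125 to 144), followed by allantois and extraembryonic mesoderm-like cells with 114 CPM (104 to 124), definitive endoderm-like cells with 77.4 CPM (66.9 to 89.2) and the Lhx1-led cluster with 60.4 CPM (49.4 to 73.2). Each of these steps exceeded counting error. The Car3-led, Lgals3-led, streak-like and Tal1-high hemangiogenic clusters had 36.1, 33.3, 31.2 and 25.9 CPM. Epiblast-like cells had 16.4 CPM, the Sfn-led cluster 9.13 CPM, germ cell-like cells 5.23 CPM and naive pluripotent-like cells 1.01 CPM (2 UMIs).

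Dkk1 transcripts were unevenly held within a state. In the Etv2-high hemangiogenic cluster 138 of 223 cells had a Dkk1 UMI (61.9%, 55.2 to 68.3), with up to 40 UMIs in a cell, and 5 cells held 20.1% of the cluster's Dkk1 UMIs. In the Sfn-led cluster 5 cells held 84.8% of its 33 UMIs, 22 of which lay in 1 cell, and in the Lgals3-led cluster 5 cells held 46.2%. The levels of Dkk1 in the last 2 clusters thus rest on few cells.

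Frzb (ENSMUSG00000027004, chromosome 2, 80411970 to 80447625, minus strand) was high in another set of states. The Lhx1-led cluster had 109 CPM (94.2 to 126), streak-like cells 93.2 CPM (86.2 to 101) and definitive endoderm-like cells 77.8 CPM (67.2 to 89.6), and 66.9% to 75.7% of the cells in these 3 had a UMI. Etv2-high hemangiogenic, epiblast-like, Lgals3-led and Car3-led cells had 24.3 to 35.0 CPM, and germ cell-like cells 8.88 CPM. Frzb was at 3.87 CPM in the Sfn-led cluster, at 2.84 CPM in Tal1-high hemangiogenic cells and at 1.11 CPM (5 UMIs) in allantois and extraembryonic mesoderm-like cells. No UMI was read in naive pluripotent-like cells, with an interval that reached up to 1.86 CPM. Definitive endoderm-like cells and the Lhx1-led cluster were thus high in both inhibitors, allantois-like cells in Dkk1 and streak-like cells mainly in Frzb.

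Over all 10 genes, 7 had their highest EB level in an unnamed cluster and 0 in the streak-like cluster. That count of 0 depends on how the cells are clustered and was 1 to 3 under other settings, and it was 3 when the Lhx1-led cluster, whose leading genes include Mesp1 and Lefty2, was counted with the streak-like one.

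Streak and nascent mesoderm-like cells (276 cells) were set against epiblast-like cells (220 cells), the pluripotent state from which streak cells form in the embryo. Of the 10 genes, 3 were at least 2-fold higher in streak-like cells, beside 3.84% of 11800 genes, and 0 were at least 2-fold lower, beside 7.93%. Wnt5a had 33.2 CPM in streak-like cells and 5.98 CPM in epiblast-like cells, a ratio of 5.55 (3.86 to 8.20). Frzb was 3.23-fold higher (2.72 to 3.86) and Lef1 2.29-fold higher (1.97 to 2.66). Wnt3 (1.23-fold), Rspo3 (1.60-fold) and Dkk1 (1.91-fold) were above 1 beyond counting error without reaching 2-fold. The ratio was 1.12 for Sp5 (1.03 to 1.21) and 0.858 for Axin2 (0.691 to 1.07).

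Tal1-high hemangiogenic cells (101 cells, led by Lmo2 with Tal1, Hhex and Fli1) were set against Etv2-high ones (223 cells, led by Etv2 and Kdr), the factor and receptor that mark the onset of the blood and vessel lineage. Of 9 genes with enough UMIs, 7 were at least 2-fold lower in Tal1-high cells, beside 6.17% of 11075 genes, and 0 were at least 2-fold higher, beside 5.83%. Frzb had 2.84 CPM in Tal1-high cells and 35.0 CPM in Etv2-high cells, a ratio of 0.0811 (0.0322 to 0.170). Sp5 had 15.4 and 108 CPM in the same order (0.143, 0.09998 to 0.198), Wnt5b 3.65 and 21.5 CPM, Dkk1 25.9 and 134 CPM and Wnt5a 6.08 and 29.2 CPM. Wnt3 (ratio 0.383) and Lef1 (0.402) were lower by smaller folds. Rspo3 had 173 CPM in Tal1-high cells and 104 CPM in Etv2-high cells (1.68, 1.48 to 1.90), and Axin2 had a ratio of 0.821 (0.593 to 1.12).

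Definitive endoderm-like cells (118 cells) were set against the same streak-like cells, so this comparison shares those cells with the one against epiblast-like cells. Of the 10 genes, 6 were at least 2-fold lower in definitive endoderm-like cells, beside 8.28% of 11304 genes, and 1 was at least 2-fold higher, beside 10.6%. Wnt5b, with 7 UMIs in definitive endoderm-like cells, and Wnt3a, with 0, reached 10 UMIs only with those of streak-like cells. The counts of this comparison are therefore given as a description only. Wnt5b (ratio 0.126), Lef1 (0.129), Wnt5a (0.158), Rspo3 (0.288), Wnt3 (0.373) and Sp5 (0.414) were lower. Dkk1 was higher, with 77.4 CPM in definitive endoderm-like cells and 31.2 CPM in streak-like cells (2.48-fold, 2.04 to 3.03). Frzb was nearly level, with 77.8 CPM in definitive endoderm-like cells and 93.2 CPM in streak-like cells (0.835, 0.707 to 0.982).

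The next question was whether ligand, target and inhibitor transcripts lay in the same EB cells. At least 1 UMI of Wnt3 or Wnt3a was read in 1213 of 1875 cells (64.7%, 62.5 to 66.9), of Sp5, Axin2 or Lef1 in 86.4% and of Dkk1 or Frzb in 53.3%. All 3 kinds were read in 672 cells (35.8%, 33.7 to 38.1). Free RNA in empty droplets would give a UMI of a given gene in 0.010% (Wnt3a) to 2.64% (Sp5) of EB droplets. In naive pluripotent-like cells, at a median of 25292 UMIs, Frzb had no UMI, and Dkk1 and Wnt5a were each read in 2.60% of cells. These genes were already known to be low there, so their shares are no check on free RNA. Detection depends on depth, however: with every cell thinned to 6000 UMIs, Wnt3 or Wnt3a was read in 27.9% of cells (25.9 to 30.0) and all 3 kinds in 6.45% (5.38 to 7.66). No cell had too few UMIs to be thinned.

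Cells with a Wnt3 or Wnt3a UMI had a target UMI more often than cells without one, and they also held more UMIs (medians of 28440 with and 20480 without). Axin2 was read in 46.6% of cells with a ligand UMI and in 31.9% of cells without, a difference of 14.7 percentage points (10.1 to 19.1). After thinning, these shares were 14.3% and 11.4%, and the difference of 2.95 points had an interval that included 0 (-0.33 to 6.58). Thinning also cut the cells with a ligand UMI from 1213 to 523, so many cells that held one at full depth then counted as without. Where at least 2 UMIs were asked for, the difference at full depth was 9.76 points (6.24 to 13.4). How much of the 14.7 points comes from depth was not tested. For Sp5 the shares were 70.7% with and 47.1% without, and after thinning 46.8% and 33.9%, a difference of 12.9 points (7.94 to 17.8). Lef1 differed by 24.1 points, and by 7.13 points after thinning (2.53 to 11.9). Cells of 1 library are not replicates, so these intervals do not say how such differences would vary between cultures.

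The same shares were also compared within states. Within clusters and after thinning, the Sp5 share was higher in cells with a ligand UMI in 9 of 12 clusters, but the interval of the difference lay above 0 in only 3, and streak-like cells showed 58.1% with and 58.5% without. For Axin2 the thinned share was higher in 8 of 12 clusters, with an interval above 0 in 1, definitive endoderm-like cells, where 5 of 17 cells with a ligand UMI had Axin2. For Lef1 the thinned share was higher in 9 of 12 clusters, with an interval above 0 in 3 and below 0 in 1, the Etv2-high hemangiogenic cells, where it was 12.3% with and 26.0% without (-13.67 points, -23.1 to -2.26). How much of each overall difference lies between states was not tested.

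**Figure D4:**
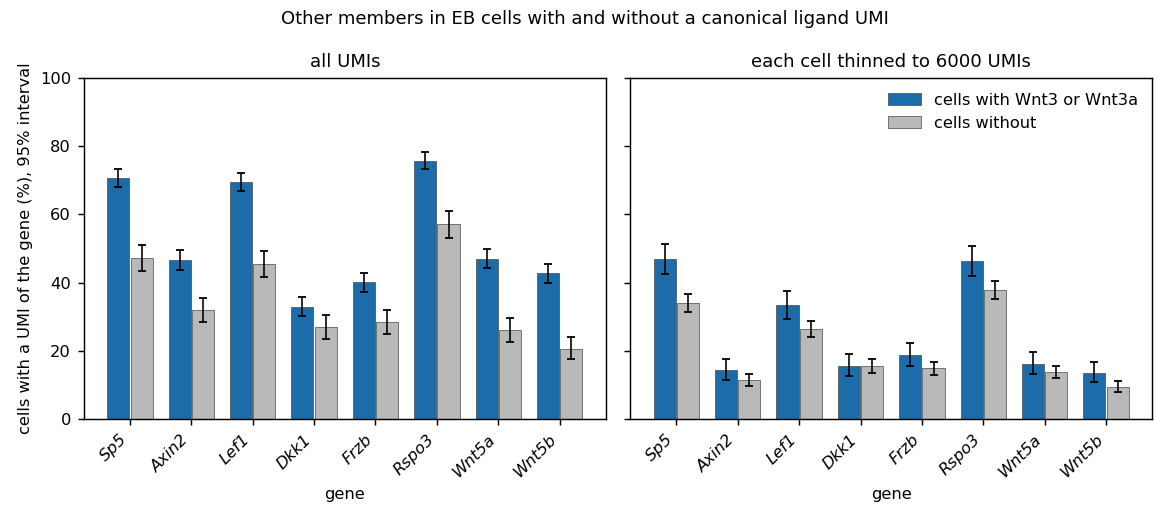
Share of EB cells with a UMI of each of 8 genes, in cells with a Wnt3 or Wnt3a UMI (blue) and in cells without (grey), with exact 95% intervals, for all UMIs (left) and for cells thinned to 6000 UMIs (right). The gap for Axin2 is 14.7 points at full depth and 2.95 points after thinning, and that for Sp5 is 23.5 and 12.9 points.

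The inhibitors were read together in 253 cells (13.5%, 12.0 to 15.1). At full depth Frzb was read in 43.8% of cells with Dkk1 and in 32.5% of cells without, and after thinning in 15.8% with and 15.98% without, a difference of -0.23 points (-4.41 to 4.70). Frzb cells differed from the rest in Sp5: after thinning 53.5% of cells with Frzb and 34.5% of cells without it had a Sp5 UMI, a difference of 19.0 points (12.9 to 25.03), while Axin2 differed by -1.40 points (-4.92 to 2.94). Within clusters and after thinning, the interval of the Sp5 difference lay above 0 in 0 of 10 clusters, and the Sp5 share was higher in cells with Frzb in 8 of them. In definitive endoderm-like cells 44 of 118 cells had both inhibitors at full depth, and in the Lhx1-led cluster 23 of 74. In allantois and extraembryonic mesoderm-like cells, 2 of 164 did.

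Profiles over the 12 EB clusters were compared by Pearson's r of log2(CPM + 1), as a description over 12 points that share 1 library. Among the 10 genes, Wnt3 was most like Wnt5b (r = 0.87), Wnt5a like Rspo3 and Lef1 (0.78 each) and Frzb like Sp5 (0.73), while Sp5 and Rspo3 were unrelated (-0.04). Of 9953 genes with at least 100 UMIs, those nearest to Frzb were Lhx1 (0.98) and Gsc (0.95), homeobox genes of the anterior streak, and Lhx1os (0.93), which lies beside Lhx1. Those nearest to Sp5 were Tdgf1 (0.93), the Nodal co-receptor, with Arhgef5 (0.90) and Zic5 (0.89), and those nearest to Lef1 were Hnrnph3 (0.97), Timm50 and Hoxb1 (0.94 each).

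For Wnt5a the nearest were Maged1 (0.94), Ndufa2 (0.93) and the cardiac and second heart field factor Isl1 (0.92), and for Wnt3 Gmps and Eid2 (0.93 each). Dkk1 was nearest to Ttc3 and Kdm6b (0.95 each) and Cyp51 (0.93), Rspo3 to Nelfe (0.94), Ufsp2 (0.93) and Slc25a11 (0.92), Wnt5b to Slu7 (0.94), Usp5 and Pdk3 (0.92 each), and Axin2 to Nacc1, Tnpo1 (0.91 each) and Ppap2c (0.90).

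In the yolk sac Rspo3 (115 of 132 UMIs) and Wnt5a (83 of 94 UMIs) were read mainly in wall cells, while Lef1 (3 of 15) and Sp5 (2 of 6) were not. The 5 wall clusters (311 cells) were set against the 5 named blood clusters (330 cells). In these cells together 6 of the 10 genes had at least 10 UMIs, and Wnt3, Frzb and Wnt5a reached that through the wall cells alone, so no count of members is read from this comparison. Of 13020 genes, 35.7% were at least 2-fold higher in wall cells. The median log2 ratio over all of these genes was 0.47, so levels in wall cells are read against that shift. Rspo3 had 16.5 CPM (115 UMIs) in wall cells and 0.408 CPM (5 UMIs) in blood cells, which is 40.5-fold (16.8 to 127). Wnt5a had 11.9 CPM (83 UMIs) in wall cells and 0 UMIs in blood cells, and the interval of its ratio began at 38.7. Frzb and Wnt3 had 12 and 11 UMIs in wall cells and 0 in blood cells, and Axin2 had 19 UMIs in wall cells and 5 in blood cells (6.69-fold, 2.41 to 22.9).

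The wall cells differed in which of these genes they carried. Rspo3 was highest in endothelial-like cells, with 84.8 CPM (63 UMIs, 65.2 to 108) and a UMI in 18 of 48 cells (37.5%, 24.0 to 52.6), although these were the shallowest cells of the library. Mesenchymal and fibroblast-like cells had 16.6 CPM, but all 12 UMIs lay in 3 cells, and smooth muscle-like cells had 15.2 CPM (34 UMIs) in 14 of 94 cells. Among blood cells Rspo3 was read in 2 of 330 (0.606%, 0.0735 to 2.17). Taking each of the 10 genes singly, free RNA in empty droplets would give a UMI of it in at most 0.00750% of YS cells.

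Wnt5a was read in the mesenchymal and smooth muscle-like cells too, and in mesothelial-like cells. Mesenchymal and fibroblast-like cells had 20.8 CPM (15 UMIs, 11.6 to 34.3) and mesothelial-like cells 16.6 CPM (42 UMIs) in 33 of 101 cells. The Id2-led cluster had 13.3 CPM (10 UMIs) and smooth muscle-like cells 11.2 CPM (25 UMIs). Neighbours in this order did not differ beyond counting error, and other pairs were not compared. Endothelial-like cells had 1 UMI and extraembryonic endoderm-like cells 0. Of all YS cells, 9 had both Rspo3 and Wnt5a. Rspo3 was the 1 gene of the 10 with at least 100 YS UMIs, and over the 12 YS clusters its profile was most like those of Tpgs1 (r = 0.95), Syne2 and Dlgap4 (0.94 each) among 8849 genes.

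The other members were near the limit of detection in the wall. Axin2 had 9.70 CPM (7 UMIs) in mesenchymal and fibroblast-like cells and 3.17 CPM (8 UMIs) in mesothelial-like cells. Smooth muscle-like cells held 8 of the 13 Wnt3 UMIs and 8 of the 15 Frzb UMIs of the library. In extraembryonic endoderm-like cells 3 UMIs of the 10 genes were read in all, 1 each of Wnt5b, Axin2 and Dkk1, from 27 cells.

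The Id2-led unnamed cluster of 30 YS cells, whose leading genes include Crabp2, Sox11 and Meox1, held all 10 genes at 1 to 10 UMIs each. It had the highest YS level of 6 of them (Wnt3a, Wnt5b, Sp5, Axin2, Lef1 and Dkk1), against 4 with their highest level in a wall cluster; with a higher UMI minimum for cells, 0 were highest in an unnamed YS cluster. Lef1 had 13.3 CPM there (10 UMIs, 6.37 to 24.4), 9.89-fold above the next cluster, smooth muscle-like cells (2.55 to 55.9). For the other 5 the next cluster did not differ beyond counting error. The Cd34-led cluster (102 cells) had between 0 and 3 UMIs of each gene.

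**Figure D5:**
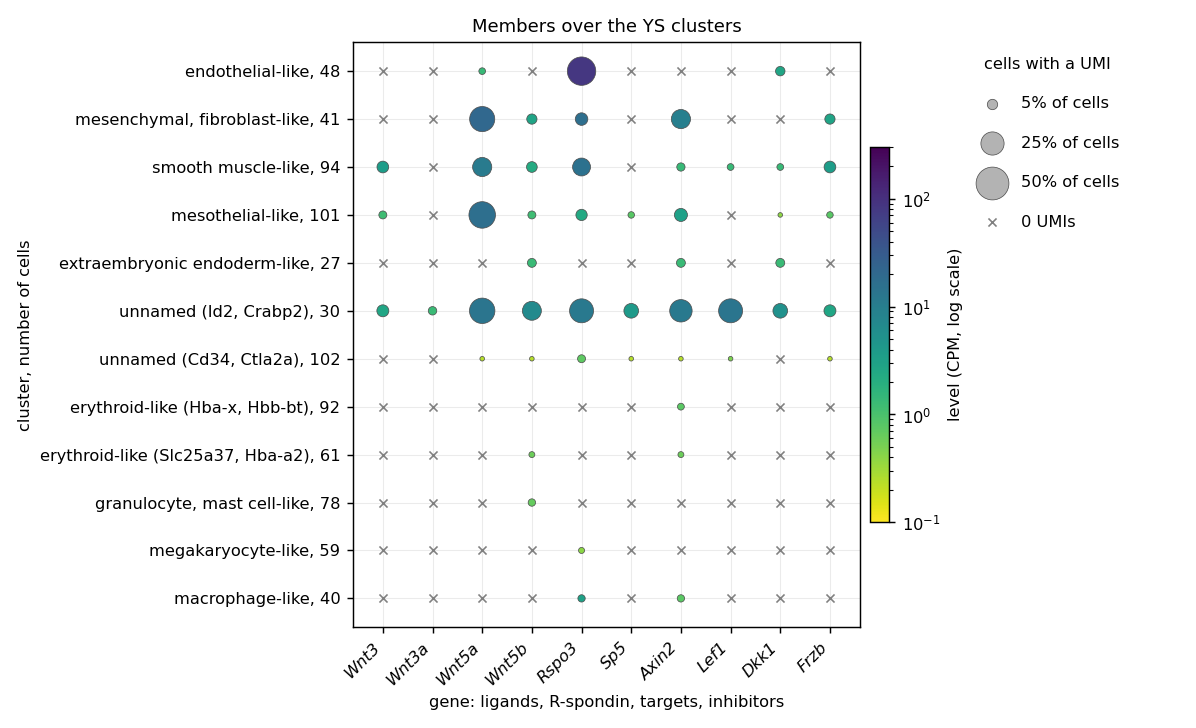
Map of the 10 genes (columns) over the 12 YS clusters (rows, with their number of cells), with colour for the level in CPM on a log scale, circle area for the share of cells with a UMI (a smaller range than in EB) and crosses for 0 UMIs. Rspo3 stands out in endothelial-like cells (84.8 CPM), Wnt5a in mesenchymal, mesothelial and smooth muscle-like cells (11.2 to 20.8 CPM), and the Id2-led cluster is the only row without a cross.

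The rest of the pathway was described with a list of 80 other genes, of which 72 had at least 10 UMIs in both libraries together. Of these, 30 passed 2-fold toward EB cells and 8 toward YS cells, with a median log2 ratio of 0.74, beside shares of 18.6% and 21.5% of all genes. Some reached 10 UMIs only through the library where they are higher, such as Wnt8a and Cer1 (0 UMIs in YS cells) and Dkk2 (6 in EB cells). These counts, and those of each group of the list that follow, are therefore given as a description only. Among 10 other ligands, 5 were higher in EB cells and 0 in YS cells. Wnt8a, a posterior ligand of the gastrulating mouse embryo, had 6.90 CPM (349 UMIs) in EB cells, with 25.9 CPM in epiblast-like cells. It had 0 UMIs in YS cells, and the interval of its ratio began at 44.8. Wnt7b had 16 UMIs in EB cells and 1 in YS cells (7.62-fold, 1.18 to 320). At the other end, Wnt2b (ratio 0.929) and Wnt16 (0.873) had intervals that included 1.

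Among 16 receptors, 4 passed 2-fold toward EB cells and 2 toward YS cells, beside 18.6% and 21.5% of all genes. No result about receptors is read from these counts. Fzd10 had 17.2 CPM in EB cells and 0.623 CPM in YS cells (27.6-fold, 16.6 to 49.4), and Fzd7 was 6.76-fold higher in EB cells. Fzd4 and Fzd8 ran the other way, with 0.534 and 0.831 CPM in EB cells against 4.28 and 4.07 CPM in YS cells, and both were highest in YS endothelial-like cells. Of 6 genes of the R-spondin arm 4 were higher in EB cells. Lgr5, an R-spondin receptor, had 117 UMIs in EB cells and 3 in YS cells (18.6-fold, 6.20 to 91.4), and was highest in the Tal1-high hemangiogenic cells. Rspo4 had 21 UMIs in EB cells and 0 in YS cells (interval of the ratio from 2.48), while the ligase genes Znrf3 and Rnf43 had ratios of 1.61 and 1.56.

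Of 16 other inhibitors, 7 passed 2-fold toward EB cells and 5 toward YS cells, beside 18.6% and 21.5% of all genes. Both counts include a gene whose direction is not fixed beyond counting error. Toward YS cells this is Dkk4, with 5 UMIs in each library (EB over YS 0.476, 0.110 to 2.07). Toward EB cells it is Apcdd1, with 12 UMIs in EB cells and 2 in YS cells (2.86, 0.636 to 26.3). No result about inhibitors as a group is read from these counts. Cer1, which blocks Nodal, BMP and WNT ligands in the frog embryo, had 435 UMIs in EB cells and 0 in YS cells. The interval of its ratio began at 55.9, and 329 of the 435 UMIs lay in definitive endoderm-like cells. Notum, an enzyme that inactivates WNT proteins, had 194 UMIs in EB cells and 4 in YS cells, a ratio of 23.1 (8.88 to 85.6). Dkk2, of the same family as Dkk1, had 6 UMIs in EB cells and 311 in YS cells, 109-fold higher in YS cells (49.4 to 299), with 99.8 CPM in mesenchymal and fibroblast-like cells. Sost had 7 UMIs in EB cells and 18 in YS cells, 5.40-fold higher in YS cells (2.15 to 15.3). Of those 18 UMIs, 16 lay in endothelial-like cells, where 4.17% of 48 cells had one, so this value rests on few cells. Dkk1 and Dkk2 therefore had opposite directions between EB and YS.

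Secretion of WNT proteins needs Porcn, which attaches their lipid, and Wls, which carries them to the surface. The EB level was 14.2 times the YS level for Porcn (8.78 to 24.6) and 1.57 times for Wls (1.46 to 1.69). Among 15 genes of the destruction complex and TCF factors 4 passed 2-fold toward EB cells and 1 toward YS cells. The shares of all genes were 18.6% and 21.5%, and no result about this group is read from its counts. Tcf7 was 12.0-fold higher in EB cells and Tcf7l1 2.46-fold, whereas Dvl1 (0.675) and Gsk3a (0.487) were lower. Of 7 other targets and feedback genes 5 were higher in EB cells. Sp8, of the same family as Sp5, had 723 UMIs in EB cells and 2 in YS cells (172-fold, 47.5 to 1424), and Tnfrsf19 was 23.5-fold higher. Nkd1 (ratio 1.81) and Myc (0.518) did not reach 2-fold in either direction.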

How the data were processed

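Both libraries were deposited as matrices of UMI counts per gene and barcode (33456 genes, 737280 barcodes each), with genome build mm10 per the submitters' processing notes; aligner, counting program and annotation are not stated in the sources used here. Barcodes with at least 6172 (EB) or 6537 (YS) UMIs, 10% of the 99th percentile over the 3000 barcodes with most UMIs, and at most 10% mitochondrial UMIs were kept (1878 and 775), and 3 and 2 marked as doublets were removed. The marked shares (0.160% and 0.258%) are below the expected ones (1.50% and 0.62%), so doublets remain. The cells held 68.4% and 79.5% of the library UMIs. They were clustered in scanpy 1.11.5 (2000 variable genes, 30 components, 15 neighbours, Leiden resolution 1). A cluster was named from at least 3 markers that were 2-fold higher than in other cells and read in 25% of its cells, with a mean log2 difference of at least 0.5 over the list (20 CPM added) and 2 markers among its top 10 genes. With 1 marker there it was named only where no other list had any or at least 2 of every 3 markers of the list met these limits.

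Counts were summed over cells. Ratios were counted at 2-fold where the groups summed to 10 UMIs or more, and 0 UMIs was taken as 3 counts. Shares were repeated on cells thinned to 6000 UMIs by a random draw that was not repeated. Thinning acted on both genes of a pair, so cells that held a gene at full depth may count as without it. Differences of shares have Newcombe intervals. Intervals cover counting error only. The 10 genes and all gene lists were chosen with earlier results of these data known. All 10 are named; of the 80 other WNT genes, those with the largest and smallest ratios of each group are named, and the 3 genes most like each member, where it had enough UMIs; a gene among those most like Wnt3 is not reported here. Python 3.11.15, numpy 2.4.6, scipy 1.17.1 and pandas 2.3.3 were used. Starts and sequences are from GENCODE M21 (32655 of 33456 gene IDs matched) and RefSeq (GRCm38.p6; 8 of the 10 genes had an entry, and Wnt5a and Rspo3 had none).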

Additional observations from a re-analysis of the deposited data

How the results depend on the processing

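Each library is 1 sample, so no value has replicate error, and detection in single cells is limited by depth. No paired analysis was possible because each group has 1 library. All 10 genes kept ratios of EB over YS of at least 2, with 0 lower, under each of 11 settings (other UMI and mitochondrial limits, doublets kept, no or a higher UMI minimum per gene, totals without globin genes, scaling by the median of ratios, wall cells only, and without cells whose barcode the libraries share). Over these settings the log2 ratio of single genes ran between 1.17 and 9.44, and 8 of 110 values moved, all with wall cells only. The settings with no or a higher UMI minimum per gene left every ratio unchanged by construction, since all 10 genes passed them.

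The share of EB cells with a Wnt3 or Wnt3a UMI, 64.7% as reported, was 68.5% where cells needed 20% of the 99th percentile of UMIs, 61.5% with a minimum of 1000 UMIs, 27.9% with cells thinned to 6000 UMIs and 38.1% where at least 2 UMIs were asked for. The Axin2 difference of 14.7 points was 2.95 points after thinning and 9.76 points at 2 UMIs. The number of genes with their highest EB level in a streak-like cluster, 0 as reported, was 1 with a mitochondrial limit of 20% or with doublets kept, and 2 with the higher UMI minimum or with 3000 variable genes. It was 3 with a mitochondrial limit of 5%, at resolution 0.6 or 1.5, with the WNT genes kept among the variable genes, or with the Lhx1-led cluster counted as streak, an alternative chosen after seeing the data. With 1000 variable genes no EB cluster took that name, and the number of genes highest in a YS wall cluster was 2 in place of 4; it was 5 with doublets kept or at resolution 1.5, and with the higher UMI minimum it was 4, with 0 genes highest in an unnamed YS cluster in place of 6. The causes of these shifts were not tested.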

Other observations

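In the EB library 142 barcodes had enough UMIs but a mitochondrial share above 10% and entered no comparison. Their levels are given as values only. Wnt3 had 77.7 CPM (62.3 to 95.7) in these barcodes and 55.7 CPM in the EB cells, Wnt5b had 60.0 CPM (46.6 to 76.1) and 21.8 CPM, Dkk1 had 118 CPM (99.1 to 140.1) and 48.6 CPM, and Frzb had 84.7 CPM (68.6 to 103) and 34.6 CPM. Sp5 had 140.3 CPM (119 to 164) in these barcodes and 121 CPM in the EB cells, and Axin2 28.2 and 23.7 CPM. Cells of which state these barcodes hold was not tested.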
